A study of Mus musculus and Homo sapiens with 10 samples.

Results

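The regions described here were the CTCF peaks of human chromosomes 4, 13, 18 and 21, taken as every interval of at most 20 kb on these chromosomes in the authors' deposited list of CTCF peaks. They numbered 549, of 10912 intervals in the whole list and of 10607 intervals of at most 20 kb. Chromosome 4 held 207, chromosome 13 held 190, chromosome 18 held 110 and chromosome 21 held 42. The list came from HEK293T cells, an established human line of embryonic kidney origin. In these cells 2 samples carried CTCF fused to DamN126A, a variant of the bacterial adenine methyltransferase Dam that is known for less off-target methylation, and 1 sample carried DamN126A alone. Expression of the Dam proteins was induced in all 3 with 2 µg/mL doxycycline, per the labels' protocols, which do not say whether the cells were 1 clone. The list gave positions with no value per sample, so neither depth nor a spread between replicates could be had, and a peak seen in both CTCF-DamN126A samples could not be told from a peak seen in 1.

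CTCF is a zinc finger protein that binds a long DNA motif and stops the loop-extruding cohesin ring, so that pairs of its sites anchor chromatin loops and mark the borders of topological domains. It also acts as an insulator between enhancers and promoters. In DamID the fused Dam methylates adenines in GATC sites near where the protein sits, and DpnI cuts the methylated sites, so a peak shows a stretch of marked fragments around a binding place and not the motif itself. Chromosomes 4, 13, 18 and 21 are known for carrying few protein-coding genes for their length, and 13 and 21 are acrocentric, with a short arm made largely of repeats. Gene content was not measured here, since no human annotation was used, and the loci below are therefore given by their hg38 positions.

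The first comparison asked how densely CTCF peaks lay on these chromosomes. Density, the number of peaks per Mb between the outermost peaks of a chromosome (its span), was 1.12 on chromosome 21, 1.12 on chromosome 4, 1.43 on chromosome 18 and 2.39 on chromosome 13. Chromosomes 21, 4 and 18 had the lowest values of all 22 autosomes, and chromosome 13 came after chromosome 8, which had 2.04. The span of chromosome 21 starts at a single peak, 9.28 Mb before the next, which lowers its density. That of chromosome 13 stops several Mb short of the end of the chromosome, which raises its density. The 4 chromosomes averaged 1.51 ± 0.60 peaks per Mb (SD, n = 4 chromosomes), against 4.85 ± 2.80 on the other 18 autosomes (SD, n = 18). The other autosomes ran between 2.04 on chromosome 8 and 12.3 on chromosome 22. The difference was -3.34 peaks per Mb (2-sided exact permutation test over chromosomes, adjusted p = 0.00137, Benjamini-Hochberg over 5 measures), and 4 of 4 chromosomes lay below the median of the others. With gaps of over 5 Mb taken out of the spans the difference was -3.16 (exact permutation, adjusted p = 0.00319). Chromosomes served as units in this test and are not biological replicates, and these 4 were proposed with results of the same list known.

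Counting error separated some of the neighbours in that order and not others. The 95% exact Poisson interval was 0.805 to 1.51 peaks per Mb on chromosome 21, 0.975 to 1.29 on chromosome 4 and 1.17 to 1.72 on chromosome 18, so these 3 overlapped. The interval of chromosome 13, 2.06 to 2.76, lay above all of them and overlapped those of its neighbours in the order, chromosomes 8 and 5. Such intervals cover counting error only and treat peaks as independent, which neighbouring peaks need not be.

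**Figure D1:**
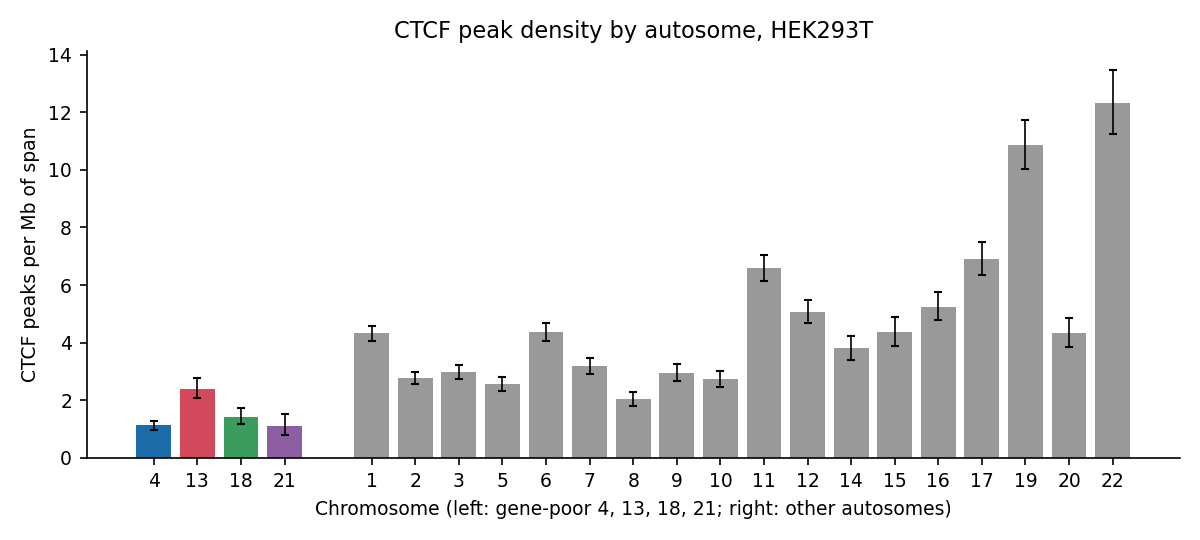
CTCF peaks of at most 20 kb per Mb between the outermost peaks, one bar per autosome, with chromosomes 4, 13, 18 and 21 at the left and the other 18 autosomes at the right; bars show density and whiskers its 95% exact Poisson interval. The 4 coloured bars sit between 1.12 and 2.39 peaks per Mb, and the grey bars between 2.04 and 12.3.

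Empty sequence made up much of these chromosomes. On a fixed grid of 1 Mb windows, 45 of 78 windows of chromosome 18 (57.7%) held no peak, 21 of 38 of chromosome 21 (55.3%), 97 of 186 of chromosome 4 (52.2%) and 26 of 80 of chromosome 13 (32.5%). Chromosomes 18, 21 and 4 had the highest shares of the 22 autosomes, while chromosome 13 lay inside the range of the others, which ended at 36.0% on chromosome 9. Windows beyond the outermost peaks were not counted, so the share of chromosome 13 leaves out a long stretch after its last peak. The mean share was 49.4 ± 11.5% on the 4 chromosomes, against 26.8 ± 6.36% on the other autosomes (SD, n = 4 and 18 chromosomes). The difference of 22.6 percentage points passed the test (2-sided exact permutation over chromosomes, adjusted p = 0.00228). With windows inside gaps of over 5 Mb left out it was 10.3 points (exact permutation, adjusted p = 0.0123).

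Occupied windows were also thinly filled. A window with any peak held 2.33 peaks on average on chromosome 4, 2.47 on chromosome 21, 3.33 on chromosome 18 and 3.52 on chromosome 13. Over the 4 chromosomes the mean was 2.91 ± 0.60 peaks, against 6.39 ± 3.10 on the other autosomes (SD, n = 4 and 18 chromosomes, not tested). The lowest of the others was chromosome 8 with 3.05, below chromosomes 18 and 13. Windows with a single peak were 66 of 382 (17.3%) on the 4 chromosomes and 336 of 2363 (14.2%) elsewhere. Windows with 5 or more peaks were 34 (8.90%) on the 4 chromosomes and 764 (32.3%) elsewhere. These windows held 45.0% of the peaks of the 4 chromosomes and 79.0% of those of the other autosomes. Peaks covered 0.55% of the span of chromosome 4, 1.33% of chromosome 13, 0.65% of chromosome 18 and 0.48% of chromosome 21, and the other autosomes ran between 1.10% on chromosome 10 and 7.40% on chromosome 22.

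**Figure D2:**
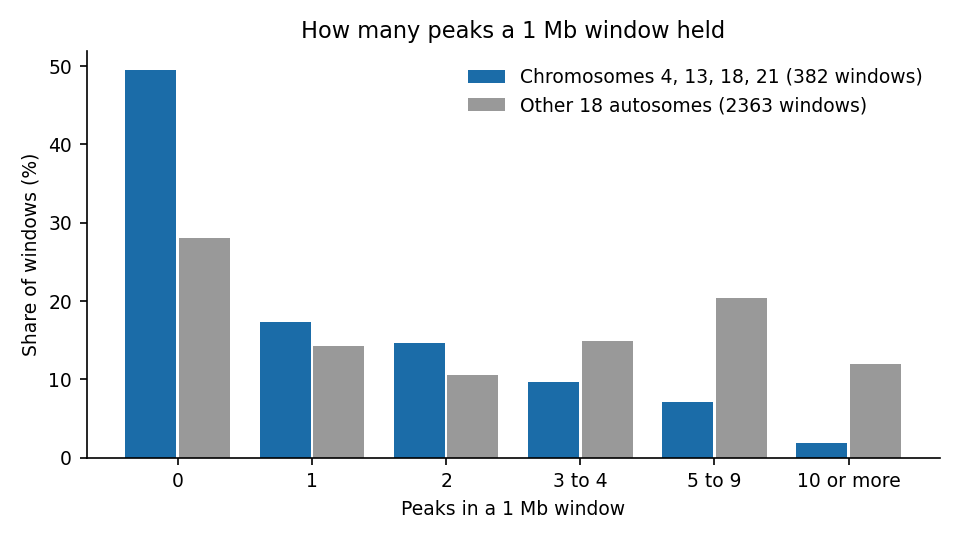
Share of 1 Mb windows (%) by the number of CTCF peaks they held, for chromosomes 4, 13, 18 and 21 (blue, 382 windows) and for the other 18 autosomes (grey, 2363 windows). Empty windows made up 49.5% of the blue and 28.1% of the grey windows, and windows with 10 or more peaks 1.83% and 12.0%.

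The longest stretches without a peak were several Mb long on each chromosome. Depth being unknown, a stretch without a peak is not shown to lack CTCF. On chromosome 4 the longest ran for 10.8 Mb, chr4:174227330-184999341, and ended at the last peak of the chromosome, an interval of 17731 bp. The second, of 10.3 Mb at chr4:20430879-30715992, was broken by 1 interval too wide for the 20 kb limit. The third, chr4:61205349-68566591, ran for 7.36 Mb. Chromosome 18 had stretches of 8.68 Mb at chr18:12419735-21101365, which takes in the centromere, of 8.63 Mb at chr18:49501289-58129823 and of 7.12 Mb at chr18:39841708-46962241. On chromosome 21 a stretch of 9.28 Mb at chr21:8236063-17511608, which takes in the centromere, was followed after a single peak of 3091 bp by another of 8.09 Mb at chr21:17514700-25608650. They made up 24.7% and 21.5% of the span of chromosome 21, while the third, chr21:37010271-39372497, ran for 2.36 Mb. Chromosome 13 had shorter ones: 4.27 Mb at chr13:80364710-84636199, 3.34 Mb at chr13:87674595-91016855 and 3.08 Mb at chr13:63637538-66713130. Only stretches between peaks were counted. In the list used here the last interval of any width ended at 100586432 on chromosome 13 and at 185017072 on chromosome 4, short of the ends of these chromosomes, and on chromosome 13 the sequence beyond it is longer than any stretch named here. Whether CTCF peaks lie beyond these positions was not analysed here.

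Gaps of 1 Mb or more, 96 in number, took up 281 Mb or 74.2% of the summed span of 378 Mb. The share was 79.9% on chromosome 21, 79.3% on chromosome 4, 76.2% on chromosome 18 and 57.9% on chromosome 13, against 47.6 ± 10.5% on the other autosomes (SD, n = 18 chromosomes, not tested), where it was highest on chromosome 8 at 65.6%. Gaps of 5 Mb or more numbered 7 on chromosome 4, 5 on chromosome 18, 2 on chromosome 21 and 0 on chromosome 13. The longest gap of a chromosome averaged 8.25 ± 2.79 Mb on these 4, against 8.55 ± 4.75 Mb on the other autosomes (SD, n = 4 and 18 chromosomes, not tested), where it reached 21.7 Mb on chromosome 9. The medians of the longest gaps ran the other way, at 8.98 Mb and 7.12 Mb.

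Spacing between neighbours was wide. The median gap, measured as the bases between the end of a peak and the start of the next, was 259 kb on chromosome 4, 164 kb on chromosome 21, 159 kb on chromosome 13 and 156 kb on chromosome 18. These were the 4 widest median gaps of the 22 autosomes, and chromosome 8 came next at 140 kb. The mean of the medians was 184 ± 50.1 kb, against 66.6 ± 32.8 kb on the other autosomes (SD, n = 4 and 18 chromosomes). The difference of 118 kb passed the test (2-sided exact permutation over chromosomes, adjusted p = 0.00137; the unadjusted p of 0.000273 is the smallest this design can give). With members within 5 kb of each other merged it was 184 kb (exact permutation, adjusted p = 0.00228). The narrowest chromosome median of the others was 20.4 kb, on chromosome 19. Fewer peaks per Mb also widen gaps and empty windows, so the tests of density, gaps and empty windows are not independent. Each also carries the limit that these chromosomes were proposed with results of the same list known.

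Short gaps made up a lower share on the 4 chromosomes than elsewhere and long gaps a higher one, shares that were not tested. Of 545 gaps on the 4 chromosomes, 65 (11.9%) were under 10 kb, 140 (25.7%) were between 10 and 100 kb, 244 (44.8%) between 100 kb and 1 Mb and 96 (17.6%) of 1 Mb or more. Of 9645 gaps on the other autosomes, 26.1% were under 10 kb and 5.18% were of 1 Mb or more. Between the quartiles, gaps ran over 63.5 to 856 kb on chromosome 4, 33.8 to 406 kb on chromosome 13, 32.6 to 438 kb on chromosome 18 and 17.9 to 799 kb on chromosome 21. Chromosome 21 thus paired close neighbours with long stretches, and 19.5% of its 41 gaps were under 10 kb while 21.95% were of 1 Mb or more. On chromosome 4 the same shares were 8.25% and 23.8% of 206 gaps.

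**Figure D3:**
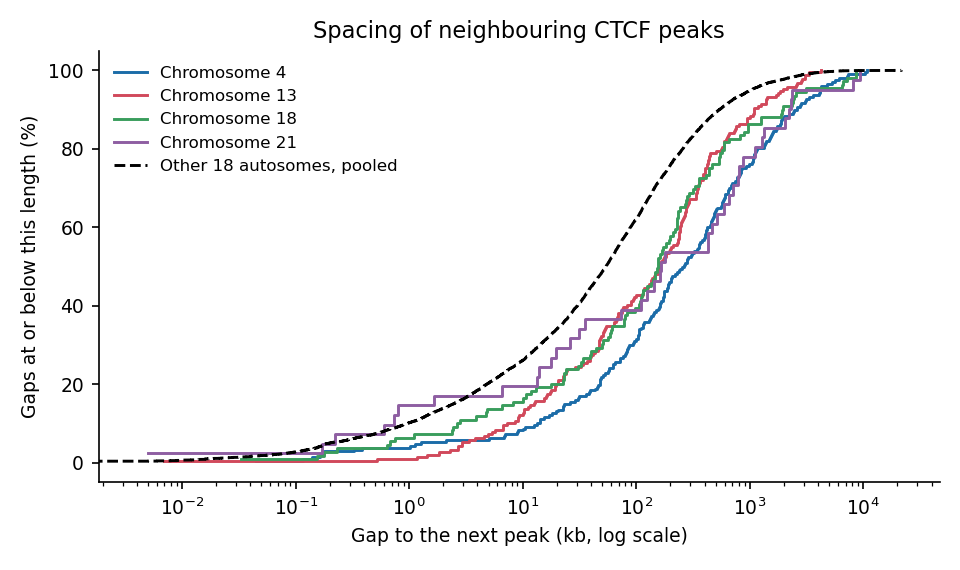
Cumulative share (%) of gaps between neighbouring CTCF peaks by gap length (kb, log scale), one line each for chromosomes 4, 13, 18 and 21 and a dashed line for the other 18 autosomes pooled. The coloured lines cross the middle of the axis at 156 to 259 kb and the dashed line at 54.1 kb. Chromosome 21 lies above the dashed line at 1 kb (6 of 41 gaps, against 10.2%) and below it at 10 kb (19.5% against 26.1%).

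Single peaks far from any other were found on each of the 4 chromosomes. In all, 30 of 549 peaks (5.46%) had no neighbour within 1 Mb, against 85 of 9663 (0.880%) on the other autosomes, a difference not tested. They numbered 17 on chromosome 4 (8.21% of its peaks), 6 on chromosome 21 (14.3%), 4 on chromosome 13 (2.11%) and 3 on chromosome 18 (2.73%). The shares of chromosomes 13 and 18 lay inside the range of the other autosomes, which ended at 4.98% on chromosome 8. The most distant was the last peak of chromosome 4, chr4:184999342-185017072, at 10.8 Mb from its neighbour. The first peak of chromosome 21, chr21:8217936-8236062, lay in the short arm, 9.28 Mb from the next, and alone set the start of the span. Others lay at chr21:17511609-17514699, 8.09 Mb from the nearest peak, at chr4:30715993-30722204, 7.15 Mb from it, and at chr18:69839856-69846208, 6.51 Mb from it. Intervals over 20 kb were not counted as neighbours, and chr4:26322069-26342505, of 20437 bp, lay nearer to chr4:30715993-30722204. At the other extreme, 123 peaks (22.4%) had a neighbour within 10 kb, against 43.6% on the other autosomes, with 35.7% on chromosome 21, 29.1% on chromosome 18, 23.7% on chromosome 13 and 15.0% on chromosome 4.

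The dense windows were few. Of 382 windows, 7 held 10 or more peaks, 3 of them on chromosome 13, 2 on chromosome 18 and 1 each on chromosomes 4 and 21. The fullest was chr4:139000001-140000000, with 13 peaks or 6.28% of those on chromosome 4, between windows of 1 and 2 peaks. Its peaks ran from 139018630 to 139666887, a stretch of 648 kb, were 1231 to 17295 bp wide and were 1011 bp to 154 kb apart, with a median gap of 44.8 kb. The pair closest together, chr4:139167630-139169126 and chr4:139170138-139174859, sat in its first part, and the widest peak, chr4:139649593-139666887, closed it. The next windows of chromosome 4 held 8 peaks at chr4:112000001-113000000 and 7 at chr4:6000001-7000000. The window with 7 followed other filled windows near the start of the chromosome, at chr4:1000001-2000000 with 6 peaks and chr4:2000001-3000000 with 5, and was followed by chr4:8000001-9000000 with 6.

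On chromosome 13 the windows chr13:77000001-78000000 and chr13:99000001-100000000 held 11 peaks each, and chr13:27000001-28000000 held 10. Peaks of the first had a median width of 2541 bp and covered 35.4 kb, and those of the second had a median width of 5560 bp and covered 68.6 kb. The first was preceded by an empty window and followed by windows of 5 and 8 peaks. The second was preceded by a window of 6 and lay close to the last peak of the chromosome, which ended at 100586432. The third held, besides its 10 peaks, the only interval over 20 kb on chromosome 13, chr13:27951308-27980453. In all, 15 windows of chromosome 13 (18.8%) had 5 or more peaks, against 4.84% on chromosome 4, 10.3% on chromosome 18 and 5.26% on chromosome 21.

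Most of the peaks of chromosome 18 lay in 1 block. Between the stretch around the centromere and the next stretch of over 5 Mb, chr18:21101366-39841707 held 79 of its 110 peaks (71.8%) in 24.3% of its span, at 4.22 peaks per Mb. The 12 peaks before it, chr18:104594-12419734, lay at 0.974 per Mb. The block began at once with one of the fullest windows, chr18:21000001-22000000 with 11 peaks, followed by windows of 6, 9 and 6. The window chr18:26000001-27000000 held a further 11, chr18:32000001-33000000 held 9 and chr18:36000001-37000000 held 8. The median width in the block was 2685 bp, against 8110.5 bp in the 12 peaks before it, a description of positions chosen after they were seen. When the span was cut into 4 equal parts, these had 12, 77, 7 and 14 peaks in order along chromosome 18, so the second held 70.0%.

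Chromosome 21 was likewise uneven. Of its 42 peaks, 40 lay in chr21:25608651-45798385, 53.7% of its span, at 1.98 per Mb. Its 4 equal parts had 2, 3, 23 and 14 peaks. These parts depend on the single first peak, 9.28 Mb before the next, which alone sets the start of the span. The window chr21:31000001-32000000 held 11, or 26.2% of the chromosome, and 9 of these formed a run from 31457364 to 31613641 in which no neighbours were more than 35.4 kb apart. The 3 last peaks of that run, chr21:31578967-31580536, chr21:31580709-31599035 and chr21:31599642-31613641, lay almost end to end, 172 and 606 bp apart. The next windows, chr21:43000001-44000000 and chr21:33000001-34000000, held 6 and 4 peaks. In the first of these chr21:43608197-43611961 and chr21:43611967-43612430 were only 5 bp apart.

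Chromosomes 4 and 13 were more even by this division, with 60, 55, 39 and 53 peaks and with 49, 42, 54 and 45. At a finer scale chromosome 4 was not even. Its first 20 Mb, chr4:674206-20430878, held 53 peaks at 2.68 per Mb, chr4:68566592-112941734 held 78 at 1.76 per Mb and chr4:138823423-159209445 held 42 at 2.06 per Mb. In between, chr4:37876199-61205348 held 14 at 0.600 per Mb and chr4:118270849-133152341 held 7 at 0.470 per Mb. Among the 22 autosomes the fullest of the 4 equal parts held most on chromosome 18 and then on chromosome 21, at 54.8%, followed by chromosome 5 at 49.6%. The place of chromosome 21 in this order depends on its single first peak, which sets where its parts begin. The fullest parts of chromosomes 4 and 13 held 29.0% and 28.4%, and only chromosome 1 had a lower value, 27.8%.

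**Figure D4:**
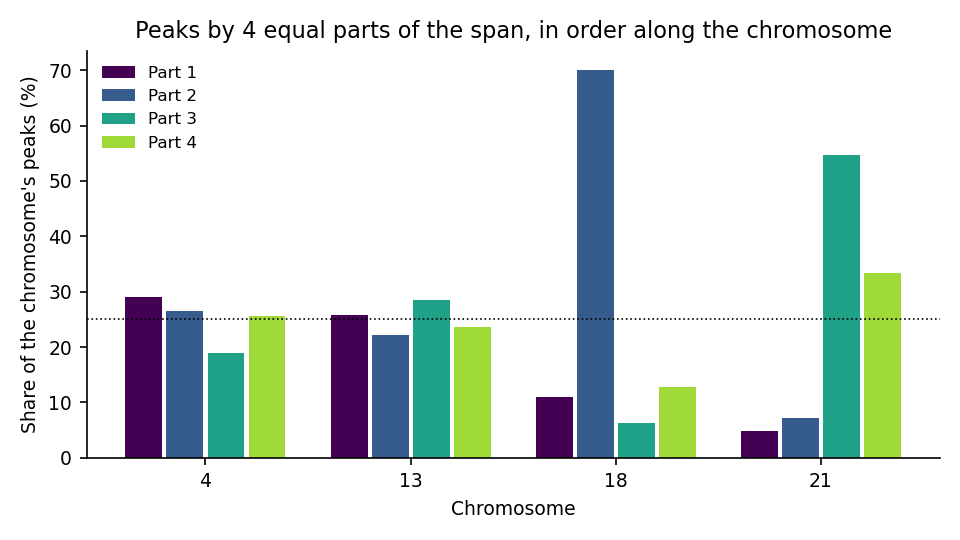
Share (%) of the CTCF peaks of chromosomes 4, 13, 18 and 21 in each of 4 equal parts of the span between the outermost peaks, with the dotted line at an even 25%. Chromosome 18 has 70.0% in part 2 and chromosome 21 has 54.8% in part 3, while chromosomes 4 and 13 stay between 18.8% and 29.0%. The parts of chromosome 21 depend on its single first peak, which lies far from the next.

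Peaks in the last 10 Mb of the span followed no common pattern. This measure, like the span and the density, is set by the last peak in the list used here and not by the end of the chromosome, which on chromosomes 4 and 13 lies several Mb further on. Chromosome 13 had 41 there, 1.71 times an even share, and chromosome 21 had 16, 1.43 times. The span of chromosome 21 starts at a single peak far from the next, which lengthens the span and raises its ratio. Chromosome 18 had 4, 0.280 times, and chromosome 4 had 1, 0.0891 times. The mean ratio was 0.879 ± 0.813, against 1.18 ± 0.810 on the other autosomes (SD, n = 4 and 18 chromosomes), and the difference did not pass the test (-0.30, 2-sided exact permutation over chromosomes, adjusted p = 0.57; 2 of 4 chromosomes lay below the median of the others).

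Close runs of peaks were rare. With neighbours at most 50 kb apart, a limit chosen after the positions were seen, 5 runs of 5 or more peaks were found on the 4 chromosomes. They held 29 peaks or 5.28%, against 2468 or 25.5% on the other autosomes, where the longest run had 41 peaks. Beside the run of 9 on chromosome 21, runs of 5 lay at chr4:6675552-6721185, chr13:46551223-46684509, chr13:75363594-75487162 and chr18:26515236-26575513. The run on chromosome 4 was the most compact, at 45.6 kb. Its peaks chr4:6689372-6690233 and chr4:6690397-6693964 were 163 bp apart. With neighbours at most 20 kb apart, 1 run of 5 was left, the last 5 peaks of the run on chromosome 21. Peaks outside any run of 2 or more made up 53.0% on the 4 chromosomes and 31.0% on the other autosomes, a difference not tested.

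**Figure D5:**
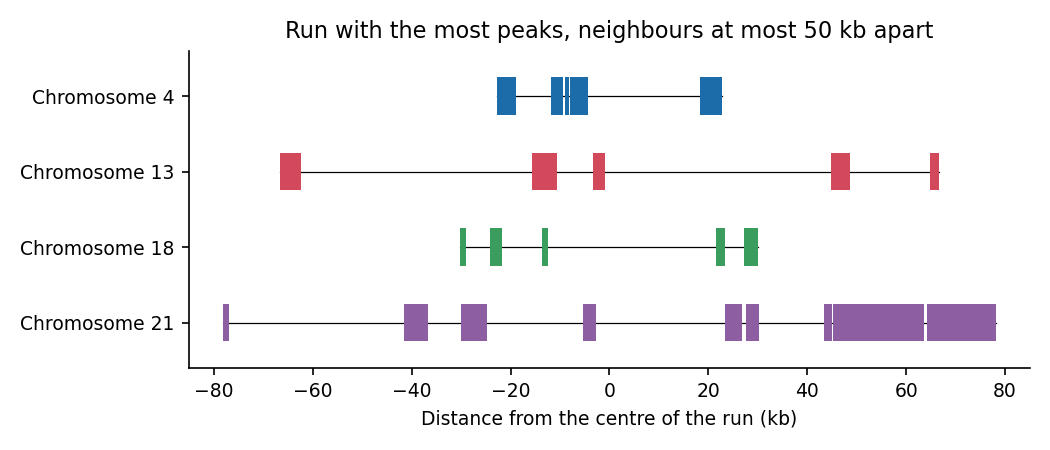
The run with the most peaks on each of chromosomes 4, 13, 18 and 21 (on chromosome 13 the first of 2 runs of 5), drawn by distance from the centre of the run (kb); filled boxes are peaks to scale and the thin line is the extent of the run. The run on chromosome 21 has 9 peaks over 156 kb, and that on chromosome 4 has 5 peaks over 45.6 kb.

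Widths ran from 448 to 19584 bp with a median of 3885 bp, and 56 of 549 peaks were 10 kb or wider. Median widths were 4256 bp on chromosome 13, 4164 bp on chromosome 4, 3431 bp on chromosome 18 and 2904.5 bp on chromosome 21, the last being the second lowest of the 22 autosomes. The mean of these medians was 3689 ± 640 bp, against 3962 ± 525 bp on the other autosomes (SD, n = 4 and 18 chromosomes), a difference of -273 bp that did not pass the test (2-sided exact permutation over chromosomes, adjusted p = 0.467). After members within 5 kb of each other had been merged into 1 it was -940 bp and passed (exact permutation, adjusted p = 0.026). Merging joins close neighbours into wider members, so this difference cannot be told apart from one in spacing. Gaps under 1 kb were 4.22% on the 4 chromosomes and 10.2% on the other autosomes. Peaks with a neighbour within 10 kb had a median width of 3568 bp (n = 123), and the 30 with none within 1 Mb had one of 5958.5 bp, values given as a description since the peaks of a chromosome share their source.

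At the 20 kb limit the widest peaks inside were chr18:63315006-63334589 at 19584 bp, chr21:31580709-31599035 at 18327 bp and chr21:8217936-8236062 at 18127 bp. The narrowest intervals outside were chr4:26322069-26342505 at 20437 bp, chr18:692667-713254 at 20588 bp and chr4:153201803-153222827 at 21025 bp. In all, 5 of 554 intervals on the 4 chromosomes (0.903%) were over the limit, against 283 of 9946 (2.85%) on the other autosomes, a difference not tested.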

How the data were processed

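Per the labels' protocols, 2.5 µg of genomic DNA was dephosphorylated, cut with DpnI at methylated GATC sites, A-tailed, cleaned on a column and ligated to Nanopore adapters. Tools listed in the submitters' processing notes are bedtools, deepTools, minimap2 and SAMtools, and the builds are hg38 and mm10, with no role stated. The peak caller, its thresholds, how the DamN126A sample was used and whether samples were pooled for calling were not given in the sources used here. The values used were start and end positions in a list that the authors deposited. It has 3 columns and no measure of strength per peak, so the depth of each sample is unknown. The list was taken as hg38: it comes from human cells, and its last positions on chromosomes 17 (82558577) and 20 (64090638) lie beyond the ends of these chromosomes in the older build hg19.

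Coordinates are printed counting from 1. Each peak was placed in a window by its midpoint. The 5 measures (density, median gap, share of empty windows, median width, share in the last 10 Mb) were computed per chromosome, and chromosomes 4, 13, 18 and 21 were compared with the other 18 autosomes by a 2-sided exact permutation test of the difference of means over all 7315 regroupings, with Benjamini-Hochberg adjustment and a threshold of 0.05. Methods were tested on simulated data. The peaks, measures and lists were chosen with earlier results of these data known. The windows and gaps named are the 3 fullest 1 Mb windows and 3 longest gaps of each chromosome; blocks between gaps of over 5 Mb, equal parts of the span, runs, the most isolated peaks and further windows were chosen after their values were seen. Genes at peaks and sequences were not analysed here, as no human annotation or genome was used, and the mouse LAD lists were not used. Alternatives changed the width limit, merging, windows, span, statistic and chromosomes. The software was scipy 1.17.1, pandas 2.3.3, numpy 2.4.6 and matplotlib 3.10.9 under Python 3.11.15.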

Additional observations from a re-analysis of the deposited data

How the results depend on the processing

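Density, median gap and share of empty windows kept their direction and their call by exact permutation under every alternative run. Density differences ranged from -3.63 to -2.44 peaks per Mb, gap differences from 92.9 to 184 kb and differences in empty windows from 10.3 to 28.2 percentage points, also with each of the 4 chromosomes left out in turn, with intervals of any width, with at most 10 kb, with chromosome X added to the comparison and with 2 Mb or 500 kb windows. None of these alternatives tests the choice of the 4 chromosomes, which were proposed with results of the same list known. The width difference passed only after merging members within 5 kb (-940 bp, exact permutation, adjusted p = 0.026), a step that also carries spacing into width. The share in the last 10 Mb turned direction with the difference of medians (0.0386, exact permutation, adjusted p = 0.802). The cause was not tested for either. The number of runs of 5 or more peaks depends by construction on the gap limit, a limit added after the data were seen: 1 run with 5 peaks at 20 kb and 13 runs with 71 peaks at 100 kb, against 5 runs with 29 peaks at 50 kb. Shifting the grid by 500 kb left 10, 10, 9 and 8 peaks in the fullest windows of chromosomes 4, 13, 18 and 21, against 13, 11, 11 and 11. No paired analysis was possible because the list holds no value per sample. For the same reason no replicate could be left out. Depth, which could limit the number of peaks called, is unknown.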

Other observations

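Other chromosomes came close to these 4. Chromosome 8, with 281 peaks at 2.04 per Mb, lay below chromosome 13 in density and had 15.4% of its gaps at 1 Mb or more. Chromosome X, left out of the main comparison, had 395 peaks at 2.54 per Mb, a median gap of 70.2 kb and 42.3% of its 1 Mb windows empty, a higher share than on chromosome 13 and on each of the other 18 autosomes. Densities and shares were again taken between outermost peaks, and chromosome 13 goes on for several Mb beyond its last one.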
